A study of Mus musculus with 9 samples.

Results

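Glutamine, proline and arginine metabolism was followed through 9 genes in mouse calvarial cells that differentiated into osteoblasts. The genes encode glutamine synthetase (Glul), glutamate dehydrogenase (Glud1), mitochondrial alanine aminotransferase (Gpt2), proline dehydrogenase (Prodh), ornithine aminotransferase (Oat), argininosuccinate synthase (Ass1), argininosuccinate lyase (Asl), a glutamate and aspartate transporter (Slc1a3) and a transporter of glutamine and other neutral amino acids (Slc38a1). They were chosen by name, and all 9 were found among the 40548 genes of the day 0 and day 7 table and in the day 4 table.

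Cells came from the calvaria of pups, C57BL/6 at postnatal day 2-3 according to the labels, and were grown to confluence; the methods name C57BL/6J and a wider range of ages. The libraries cover 3 stages, with 3 libraries each: undifferentiated cells (day 0), and cells after 4 or 7 days (day 4, day 7) in mineralization medium, which holds ascorbic acid and β-glycerol phosphate and was renewed daily. The labels name no deletion, transgene or drug for any stage. The methods name male and female pups, wild type or with a GFP reporter under a Col1a1 promoter fragment, and which of these were used for RNA-seq is not given in the sources used here. Mineralized cells were freed with collagenase I before trypsin and cells without mineral with trypsin alone, so stage and means of release cannot be told apart.

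Glutamine is taken up from the medium or made from glutamate by Glul, and it can be turned back into glutamate. Glud1 and Gpt2 both convert glutamate to α-ketoglutarate, Glud1 by releasing ammonia and Gpt2 by moving the amino group to pyruvate, which gives alanine. Proline, an abundant residue of collagen, is made from pyrroline-5-carboxylate, which comes from glutamate through Aldh18a1 or from ornithine through Oat, and Prodh starts the breakdown of proline. Ass1 and Asl together make arginine from citrulline and aspartate.

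Reads on genes numbered from 7741204 to 14013219 at day 0, from 32820610 to 37306090 at day 4, and from 10675858 to 15622755 at day 7. Levels are RPKM, the reads scaled to the length of the gene model and to the library total, and every value after ± is the SD of the 3 libraries of a stage (n = 3). SE is the standard error of a log2 fold change. Day 7 was tested against day 0 with limma on log2(CPM + 0.5), where CPM is the reads scaled to the library total alone, and differences on that scale are called log2 fold changes; they understate the change of low genes. Day 4 was deposited in a table of its own and was sequenced more deeply, so stage, table and depth cannot be told apart for day 4, and its levels were compared by direction only. Among the day 0 and day 7 libraries 3 stood apart. Gm42418, Lars2, Mir6236 and Gm15564 took 19.0% of the reads in day 0 replicate 3 and 12% in day 7 replicate 2, against 0.173% to 4.59% in the other 4 libraries of these stages. A further library, day 7 replicate 3, had 7.95% of its reads on Plekhh2, which took at most 0.560% in the other day 0 and day 7 libraries. All 9 genes had their lowest day 0 level in replicate 3, and 5 of them still did after median-of-ratios scaling, which sets libraries to the median gene instead of the total. Over the 12712 genes tested, the log2 fold change had a median of −0.11 on the deposited CPM and of −0.01 after that scaling, so both values are given where they differ in a call or a direction for a gene named with a test.

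The osteoblast label was checked against 6 markers, of which 5 rose by day 7 as deposited and all 6 after median-of-ratios scaling. Runx2 missed the threshold as deposited (log2 fold change 0.23, limma adjusted p = 0.268) and passed after scaling (0.34, limma adjusted p = 0.0363). Markers of other cell types changed too. All 6 macrophage markers rose, and their summed CPM ranged from 61.3 to 108 at day 0, from 119 to 131 at day 4 and from 118 to 155 at day 7. The 3 of 5 osteoclast markers that could be tested rose (summed CPM 150.03 to 199 at day 0, 354 to 365 at day 4 and 348 to 363 at day 7, mostly from Ctsk), while 3 of 4 tested chondrocyte markers fell (934 to 2713 at day 0, 308 to 983 at day 4 and 265 to 754 at day 7, mostly from Col2a1). The fourth chondrocyte marker, Acan, was higher as deposited (log2 fold change 1.06, limma adjusted p = 9.94e-04) but missed the threshold after scaling (1.17, limma adjusted p = 0.0517), and its day 0 and day 7 libraries overlapped. The summed CPM of the 5 endothelial markers stayed between 0.571 and 2.34 over all libraries with Emcn at 0, and the 4 adipocyte markers had at most 3 reads each in any library. Skeletal muscle markers had summed CPM of 2.76 to 4.71 at day 0, 6.73 to 12.3 at day 4 and 4.39 to 9.74 at day 7, mostly from Acta1, with Myod1 at no more than 1 read. In RNA from a whole culture, fewer cells of a type and less RNA per cell cannot be told apart, and the part of these other cells in the results for the 9 genes was not tested.

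At day 7, Prodh and Gpt2 were higher than at day 0 and Ass1 and Slc38a1 were lower, while Glul, Glud1, Oat, Asl and Slc1a3 did not pass the test. All 9 genes passed the filter on low values. The 2 of 9 that rose stand beside 12.6% of all genes tested, the 2 of 9 that fell beside 18.6%, and the 4 of 9 in either direction beside 31.2%. After median-of-ratios scaling the same 4 genes passed in the same directions, beside 22.2% of all genes higher and 20.7% lower. Shares of this size are close to the background, so the number of changes does not set these genes apart, and what follows is about the single genes. Their median log2 fold change was −0.16, against −0.11 over all genes tested.

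**Figure D1:**
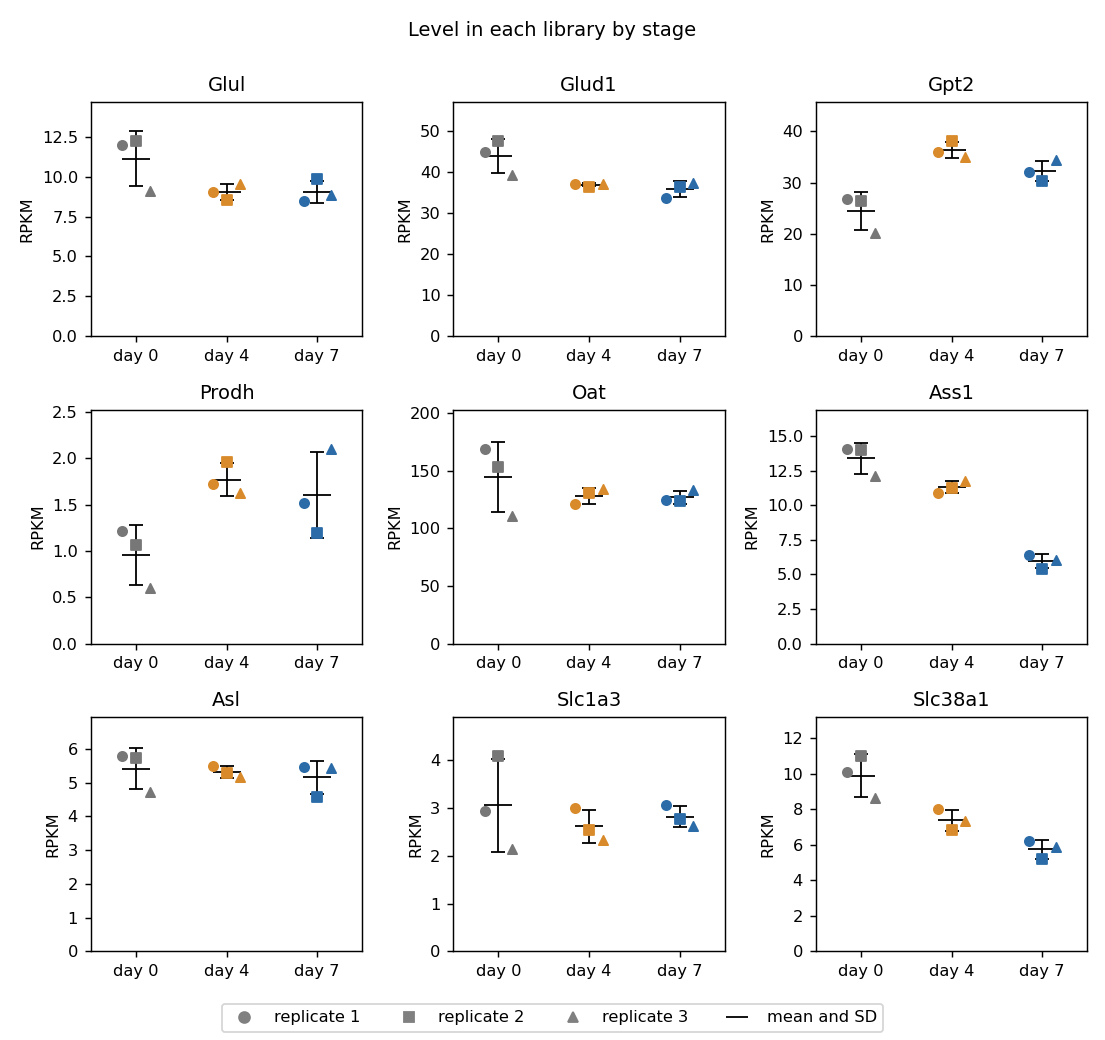
RPKM of the 9 genes in each of the 9 libraries, one panel per gene with its own axis from 0; symbols are libraries by replicate number, and lines with bars are the mean and SD of 3 libraries. Ass1 and Slc38a1 stepped down at both intervals without overlap, Gpt2 was highest at day 4, and Asl stayed between 4.58 and 5.78 RPKM.

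Of the enzymes of glutamine and glutamate, Gpt2 rose. Gpt2 (ENSMUSG00000031700, chromosome 8 of GRCm38 from 85492576 to 85527560, forward strand) measured 26.7, 26.5 and 20.2 RPKM in the 3 day 0 libraries, 36, 38.1 and 35.1 at day 4, and 32.0, 30.4 and 34.4 at day 7. Both later stages lay wholly above day 0, and day 7 lay wholly below day 4. The means were 24.5 ± 3.68, 36.4 ± 1.58 and 32.3 ± 2.03 RPKM, and the log2 fold change from day 0 to day 7 was 0.41 (SE 0.16, limma adjusted p = 0.0398). This call was close to the threshold and was lost in 7 of 20 alternative analyses, with an adjusted p of 0.209 without day 7 replicate 3 and 0.112 without day 7 replicate 1. After median-of-ratios scaling, the spread of Gpt2 among day 0 libraries shrank from a coefficient of variation of 15% to 1.55%, and the log2 fold change was 0.51 (SE 0.07, limma adjusted p = 2.11e-04).

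Glud1 (ENSMUSG00000021794, chromosome 14 from 34310727 to 34345265, forward strand), which releases ammonia from the same substrate, measured 45.0, 47.7 and 39.5 RPKM in the day 0 libraries, 37.2, 36.5 and 37.0 in those of day 4 and 33.8, 36.5 and 37.5 in those of day 7. Both later stages lay below day 0 without overlap and overlapped each other. The difference missed the threshold, with a log2 fold change of −0.29 (95% interval −0.60 to 0.02, limma adjusted p = 0.146), and after median-of-ratios scaling the day 0 and day 7 libraries overlapped. Without day 0 replicate 3 the log2 fold change was −0.37 (limma adjusted p = 0.00599), where the median over all genes tested was −0.23. With all libraries but a total that leaves out Plekhh2 and the 4 genes named with it above, the log2 fold change was −0.33 (limma adjusted p = 0.0113), where that median was −0.15. After median-of-ratios scaling Glud1 had −0.18 and did not pass (limma adjusted p = 0.112).

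Glul (ENSMUSG00000026473, chromosome 1 from 153899944 to 153909723, forward strand) measured 12, 12.3 and 9.13 RPKM in the day 0 libraries, 9.03, 8.56 and 9.56 in those of day 4 and 8.5, 9.83 and 8.84 in those of day 7. The 3 stages overlapped, because day 0 replicate 3 lay within the range of the later stages while the other day 0 libraries lay above it. The log2 fold change was −0.28 (95% interval −0.62 to 0.05, limma adjusted p = 0.204) and −0.18 after median-of-ratios scaling (limma adjusted p = 0.196). Without day 0 replicate 3 it was −0.42 (limma adjusted p = 0.00801), where the median over all genes tested was −0.23. Glul overlaps 116 exon bases of Teddm2, which lies on the opposite strand and had 3 to 32 reads, so these reads are uncertain if counting ignored the strand. It also shares 93 exon bases with the microRNA gene Mir8114 on its own strand, where reads are uncertain whether or not strand was used.

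Of the transporters, Slc38a1 fell and Slc1a3 did not pass the test. Slc38a1 (ENSMUSG00000023169, chromosome 15 from 96571418 to 96642913, reverse strand) measured 10.1, 11.0 and 8.63 RPKM in the day 0 libraries, 8.0, 6.82 and 7.35 in those of day 4 and 6.23, 5.18 and 5.85 in those of day 7. Each stage lay below the one before it without overlap. The mean went from 9.90 ± 1.19 RPKM to 7.39 ± 0.590 and then 5.75 ± 0.532. The log2 fold change of −0.77 (SE 0.16, limma adjusted p = 1.13e-04) passed in all 20 alternative analyses, where it ranged from −0.88 to −0.67.

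Slc1a3 (ENSMUSG00000005360, chromosome 15 from 8634124 to 8710764, reverse strand), known as the glutamate transporter GLAST of astrocytes and also described in osteoblasts, measured 2.93, 4.08 and 2.15 RPKM in the day 0 libraries, 3.00, 2.54 and 2.32 in those of day 4 and 3.07, 2.76 and 2.63 in those of day 7. The highest and the lowest of its 9 values were both at day 0. The log2 fold change was −0.07 (95% interval −0.44 to 0.30, limma adjusted p = 0.820), it was 0.04 after median-of-ratios scaling, and the interval leaves room for a change of either sign. Of the markers of astrocytes and Schwann cells, Aldh1l1 rose, and S100b was lower as deposited (log2 fold change −0.73, limma adjusted p = 0.0188) but missed the threshold after scaling (−0.63, limma adjusted p = 0.0862), with overlapping stages. Gfap and Aqp4 had no more than 8 reads in any library. The summed CPM of the 7 markers ranged from 6.97 to 16.6 at day 0, from 14 to 17.9 at day 4 and from 11.1 to 13.7 at day 7, and their part in the level of Slc1a3 was not tested.

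Of the proline genes, Prodh rose and Oat did not pass the test. Prodh (ENSMUSG00000003526, chromosome 16 from 18060357 to 18090203, reverse strand) measured 1.22, 1.06 and 0.597 RPKM in the day 0 libraries, 1.72, 1.97 and 1.63 in those of day 4 and 1.52, 1.19 and 2.11 in those of day 7. All day 4 libraries lay above all day 0 libraries, whereas day 7 replicate 2 lay below day 0 replicate 1. After median-of-ratios scaling day 0 and day 7 did not overlap, with scaled CPM of 2.35 to 3.72 and 4.57 to 7.39. The log2 fold change from day 0 to day 7 was 0.68 (SE 0.24, limma adjusted p = 0.0261), beside an exact two-sided permutation p of 0.2 where 3 libraries against 3 cannot go below 0.1. It rested on 16 to 59 reads per library at day 0 and 44 to 114 at day 7, and without day 0 replicate 3 it was 0.42 (limma adjusted p = 0.140), without day 7 replicate 3 it was 0.48 (limma adjusted p = 0.224).

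Oat (ENSMUSG00000030934, chromosome 7 from 132557478 to 132576398, reverse strand) had by far the highest level of the 9 genes. It measured 169, 153 and 111 RPKM in the day 0 libraries, 121, 130 and 134 in those of day 4 and 124, 123 and 134 in those of day 7. The later stages lay inside the range of day 0, which was wide because replicate 3 was low. The log2 fold change was −0.16 (95% interval −0.49 to 0.16, limma adjusted p = 0.478). It was −0.34 without day 0 replicate 3 (limma adjusted p = 0.0101), where the median over all genes tested was −0.23. After median-of-ratios scaling it was −0.05 (limma adjusted p = 0.635).

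Of the pair of enzymes that makes arginine, Ass1 fell and Asl did not pass the test. Ass1 (ENSMUSG00000076441, chromosome 2 from 31470207 to 31520672, forward strand), which joins citrulline to aspartate, measured 14.1, 14 and 12.1 RPKM in the day 0 libraries, 10.9, 11.3 and 11.7 in those of day 4 and 6.41, 5.40 and 6.02 in those of day 7. Each stage lay below the one before it without overlap. The mean went from 13.4 ± 1.13 RPKM to 11.3 ± 0.429 and then 5.94 ± 0.510, and the fitted log2 fold change was −1.14 (SE 0.17, limma adjusted p = 5.72e-07). It passed in all 20 alternative analyses, from −1.21 to −1.03. Of all 50-base stretches in the exons of Ass1, 38.6% also occur in other transcripts, most often in those of Gm5424. Reads that lie wholly within such stretches align to more than 1 place and were not counted, and Gm5424 itself had 1 to 17 reads per library. The shares were 12.6% for Glul, most often with Glns-ps1, and 6.49% for Glud1, most often with Glud-ps, and 0 for Oat and Asl.

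Asl (ENSMUSG00000025533, chromosome 5 from 130011258 to 130029247, reverse strand), which splits argininosuccinate into arginine and fumarate, measured 5.78, 5.73 and 4.73 RPKM in the day 0 libraries, 5.50, 5.27 and 5.18 in those of day 4 and 5.45, 4.58 and 5.43 in those of day 7. All stages overlapped. The log2 fold change was −0.07 (95% interval −0.41 to 0.28, limma adjusted p = 0.801) and 0.04 after median-of-ratios scaling (95% interval −0.15 to 0.22).

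**Figure D2:**
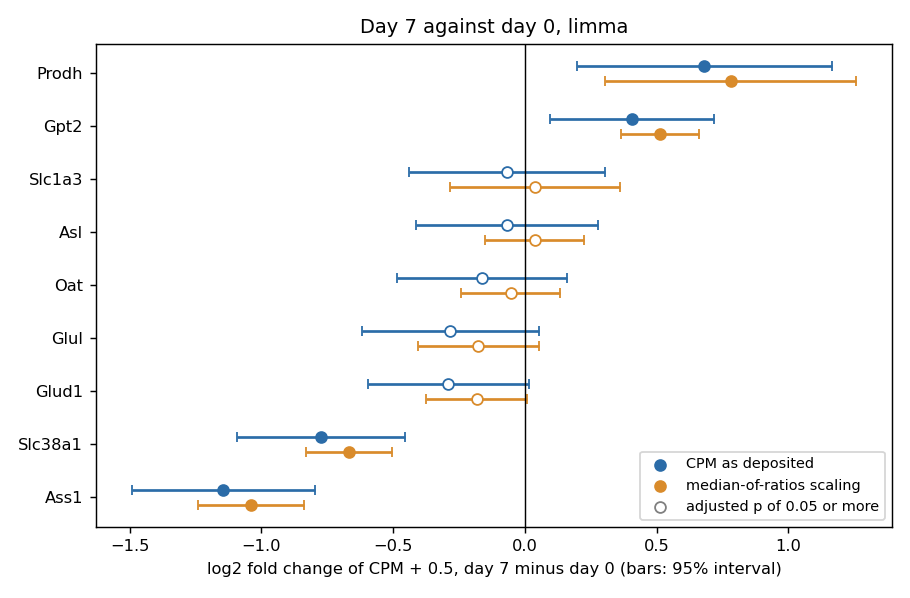
Log2 fold change of CPM + 0.5 from day 0 to day 7 for the 9 genes, as deposited and after median-of-ratios scaling, with 95% intervals from limma; filled points have an adjusted p below 0.05. Prodh and Gpt2 lie right of 0 and Slc38a1 and Ass1 left of it on both scales, and the points of Asl and Slc1a3 change side.

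Counted by overlap alone as deposited, Gpt2 was the 1 gene with all day 7 libraries above day 0 (16.9% of all genes). Glud1, Ass1 and Slc38a1 were the 3 with all day 7 libraries below day 0, where 25.4% are. At day 4, Gpt2 and Prodh lay above day 0 (21.1% of all genes do), and Glud1, Ass1 and Slc38a1 lay below it (22.2%). From day 4 to day 7, Gpt2, Ass1 and Slc38a1 were lower without overlap (24.6% of all genes) and 0 of the 9 were higher (13.8%). On the deposited values Gpt2 was thus above its day 0 range at both later stages, and Prodh at day 4. After median-of-ratios scaling, all day 7 libraries lay above day 0 for Gpt2 and Prodh and below it for Ass1 and Slc38a1. Glud1 and the remaining genes overlapped on that scale, where the shares of all genes were not computed.

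Levels of the 9 genes differed widely within a stage on the RPKM scale. Oat led at every stage with 144 ± 30.1, 128 ± 6.92 and 127 ± 5.74 RPKM at day 0, day 4 and day 7, and Prodh was lowest at every stage with 0.958 ± 0.322, 1.77 ± 0.175 and 1.61 ± 0.464. At day 0 the order from the top was Oat, Glud1, Gpt2, Ass1, Glul, Slc38a1, Asl, Slc1a3 and Prodh, in which the ranges of Ass1 and Glul overlapped, as did those of Glul and Slc38a1, although the order held within each of the 3 libraries. At day 4 the order was the same, but Glud1 and Gpt2 overlapped, with means of 36.9 ± 0.361 and 36.4 ± 1.58 RPKM, whereas the genes below them no longer did. At day 7 the ranges of Glud1 and Gpt2 still overlapped, Glul had moved above Ass1, and the ranges of Ass1, Slc38a1 and Asl overlapped, with means of 5.94, 5.75 and 5.15 RPKM. Within each of the 3 day 7 libraries the order was still Ass1, Slc38a1, Asl. Reads lost to stretches shared with other transcripts can lower a level. Such stretches made up 38.6% for Ass1 and 12.6% for Glul but 0 for Oat and Asl, and their part in the order was not tested.

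Ratios of 2 genes within a library do not depend on the scaling of that library. In all, 5 ratios were compared, chosen with the values known, with exact two-sided permutation tests whose smallest p is 0.1 and adjustment over the 5. The Ass1/Asl ratio of RPKM was 2.44, 2.44 and 2.56 at day 0, 1.98, 2.14 and 2.26 at day 4, and 1.18, 1.18 and 1.11 at day 7. It fell at both steps without overlap, and its log2 difference from day 0 to day 7 was −1.10 (exact permutation p = 0.1, adjusted p = 0.125). The Gpt2/Glud1 ratio was 0.594, 0.555 and 0.512 at day 0, 0.968, 1.04 and 0.946 at day 4, and 0.945, 0.833 and 0.919 at day 7. Gpt2 transcripts thus went from 0.554 ± 0.0408 of the level of Glud1 to 0.899 ± 0.0586, a log2 difference of 0.70 (exact permutation p = 0.1, adjusted p = 0.125). Gpt, the cytosolic form of the aminotransferase, did not pass the test (log2 fold change −0.48, limma adjusted p = 0.157), and Gpt2/Gpt went from 15.2 ± 0.629 at day 0 to 31.3 ± 8.74 at day 7 (exact permutation p = 0.1, adjusted p = 0.125).

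Slc38a1 was also set against Slc38a2, a close relative that carries glutamine, proline and alanine. The Slc38a1/Slc38a2 ratio was 0.215 ± 0.00852 at day 0, 0.128 ± 0.00762 at day 4 and 0.0984 ± 0.00456 at day 7, with no overlap at either step and a log2 difference of −1.13 (exact permutation p = 0.1, adjusted p = 0.125). Slc38a2 alone had 46.0 ± 4.66 RPKM at day 0 and 58.5 ± 6.68 at day 7 and did not pass the test as deposited (log2 fold change 0.35, limma adjusted p = 0.0823), whereas after median-of-ratios scaling it did (0.46, limma adjusted p = 0.00233). Oat/Aldh18a1 sets transcripts of the route from ornithine against those of the route from glutamate, and the use of either route was not measured. The ratio overlapped between day 0 and day 7 and went from 2.01 ± 0.274 to 1.70 ± 0.126 (exact permutation p = 0.3, adjusted p = 0.3). At day 4, however, Oat/Aldh18a1 was 1.44 ± 0.0935, below both other stages without overlap.

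**Figure D3:**
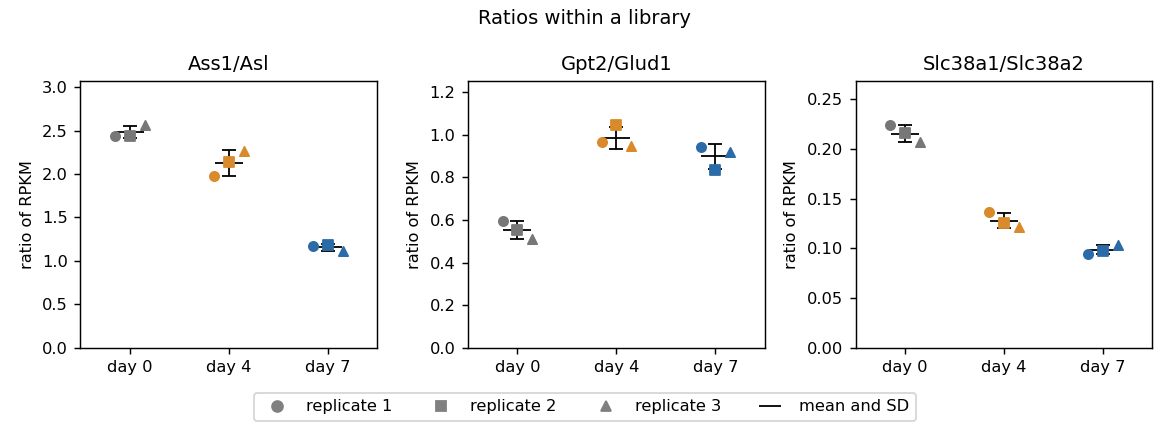
Ratio of RPKM of 2 genes within each library at day 0, day 4 and day 7, on axes from 0; symbols are libraries by replicate number, and lines with bars are the mean and SD of 3 libraries. Ass1/Asl and Slc38a1/Slc38a2 stepped down at both intervals, and Gpt2/Glud1 was above all day 0 values at day 4 and day 7.

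Other genes of the same pathways were counted from 4 lists of 80 genes that leave out the 9. Of the 60 that could be tested, 8 rose, 15 fell and 37 did not pass. Their median log2 fold change was −0.04 against −0.11 for all genes tested. After median-of-ratios scaling 15 rose and 16 fell. Counts in these lists stand beside 12.6% of all genes tested higher and 18.6% lower as deposited. After scaling these shares were 22.2% and 20.7%, and the counts are not read as a change of a pathway. In the list of glutamine and glutamate enzymes, 0 of 15 rose and 6 fell with limma as deposited (median −0.33), and 1 was higher at an unadjusted p under 0.05. After scaling 2 rose and 7 fell (median −0.23), and the count of higher genes was 2 with edgeR and 0 with DESeq2. The largest fall was that of Abat, which breaks down GABA, from 6.50 ± 0.0514 RPKM at day 0 to 4.45 ± 0.936 at day 4 and 3.11 ± 0.540 at day 7 (log2 fold change −1.06, SE 0.17, limma adjusted p = 1.13e-06). Gclc, which uses glutamate to start glutathione synthesis and was named after its values were seen, fell from 15.9 ± 2.66 to 8.67 ± 0.661 RPKM (log2 fold change −0.85, SE 0.17, limma adjusted p = 5.14e-05).

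Of the 6 tested proline genes, 0 rose and 2 fell with limma, as deposited and after scaling (median −0.20 and −0.10), and 0 were higher at an unadjusted p under 0.05, with edgeR or with DESeq2. Both act in breakdown or recycling: Aldh4a1, which completes the breakdown of proline to glutamate after Prodh, fell from 4.68 ± 0.410 RPKM at day 0 to 2.88 ± 0.30 at day 4 and 2.99 ± 0.119 at day 7 (log2 fold change −0.62, SE 0.17, limma adjusted p = 0.00444). Pepd, which frees proline from dipeptides, had a log2 fold change of −0.42 (SE 0.16, limma adjusted p = 0.0387). Prodh and Aldh4a1, successive steps of 1 pathway, thus passed in opposite directions. The synthesis genes Aldh18a1, Pycr1 and Pycrl did not pass, and the level of Aldh18a1 was 71.2 ± 5.60 RPKM on day 0, 89.4 ± 4.97 on day 4 and 75 ± 5.50 on day 7.

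In the list of arginine and polyamine genes, 4 of 14 rose and 2 fell, with a median of 0.07 as deposited and 0.17 after scaling. Among the tested genes the largest rise was that of Gatm, which uses arginine in the first step of creatine synthesis, from 0.148 ± 0.0547 RPKM at day 0 to 0.408 ± 0.0346 at day 4 and 0.562 ± 0.0931 at day 7 (log2 fold change 1.22, SE 0.28, limma adjusted p = 6.52e-04), on 2 to 49 reads per library. The largest fall was that of Amd1, an enzyme of polyamine synthesis, from 2.79 ± 0.776 to 1.76 ± 0.234 RPKM (log2 fold change −0.59, SE 0.21, limma adjusted p = 0.0312), although its day 0 and day 7 libraries overlapped. Nos2, which makes nitric oxide and citrulline from arginine and is named after its values were seen, was left out by the filter. It had 0 reads in the day 0 libraries, 20 to 91 at day 4 and 16 to 31 at day 7. The day 7 level was 20.5-fold a floor of 3 reads over the 3 day 0 libraries, a value that leaves out counting error and spread at day 7. For the related genes Nos1 and Nos3, also left out by the filter, mean CPM at day 0 and day 7 was 0.841 and 0.164 for Nos1 and 0.282 and 0.596 for Nos3. The urea cycle genes Otc and Cps1 had 0 and at most 4 reads in any library, and Arg1, which splits arginine, had at most 6.

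Of the 25 tested transporters, 4 rose and 5 fell as deposited, and 9 rose and 5 fell after scaling, with medians of −0.00 and 0.10. Slc1a1, a glutamate transporter of the same family as Slc1a3, rose most of those tested, from 0.0321 ± 0.0101 RPKM at day 0 to 0.251 ± 0.0945 at day 4 and 0.305 ± 0.0980 at day 7 (log2 fold change 1.74, SE 0.29, limma adjusted p = 4.71e-06). It had 1 to 3 reads per library at day 0 and 20 to 34 at day 7, and the ratio of summed reads per library total was 8.92 with an exact 95% counting interval from 4.12 to 23.0, which covers counting error only. Slc7a11, which exports glutamate in exchange for cystine, fell most of those tested, from 4.49 ± 0.883 to 3.51 ± 0.0311 and 2.37 ± 0.274 RPKM (log2 fold change −0.90, SE 0.17, limma adjusted p = 3.53e-05). At day 7 the level of Slc1a1 was still below that of Slc1a3, which had 2.82 ± 0.225 RPKM.

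**Figure D4:**
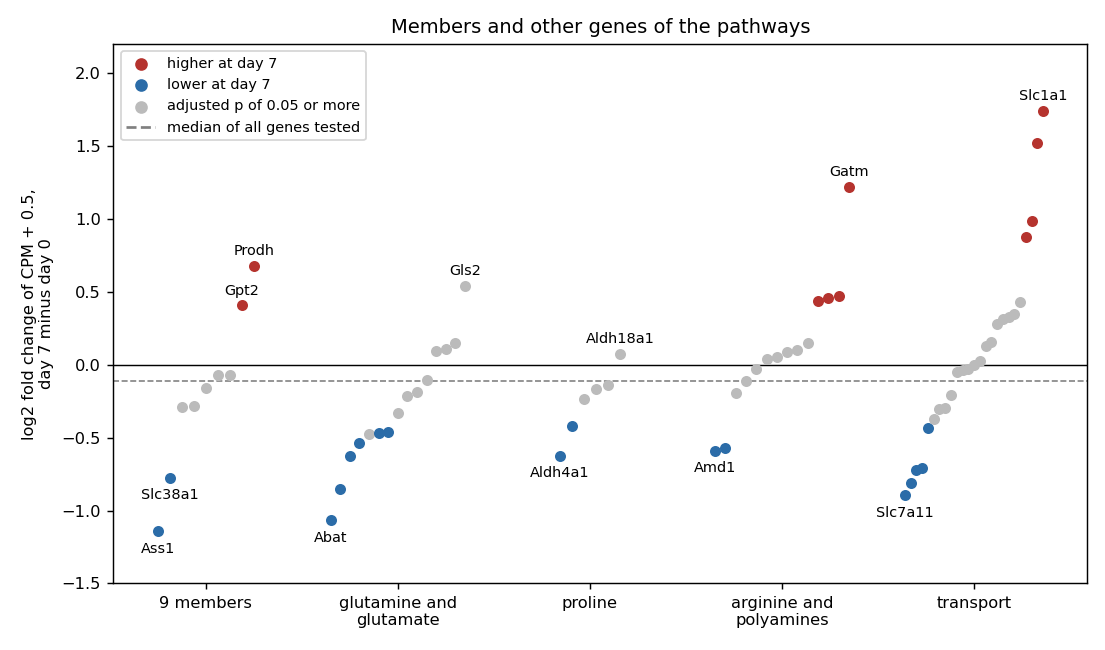
Log2 fold change of CPM + 0.5 from day 0 to day 7 as deposited, for the 9 genes and for the 60 tested genes of 4 lists of the same pathways; colours show the limma call, and the dashed line is the median of all genes tested (−0.11). As deposited, the glutamine and proline lists hold 6 and 2 lower genes and no higher one, and the arginine and transport lists hold calls in both directions. Of all genes tested, 12.6% were higher and 18.6% lower.

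For each of the 9, the gene with the most similar log2(CPM + 0.5) over the 9 libraries was sought among 9530 genes whose mean CPM reached 10 at some stage. Pearson's r was 0.998 for Slc38a1 with B4galt6, 0.993 for Gpt2 with Mthfd2, 0.990 for Ass1 with Prkd1 and 0.984 for Oat with Pex2. It was 0.976 for Glud1 with Ift80, for Prodh with Rpl37 and for Asl with Ssna1, 0.973 for Glul with Ubxn2b, and 0.972 for Slc1a3 with Tmem192. These are descriptions over 9 points that share library totals and fall into 3 stages. Mthfd2, an enzyme of mitochondrial folate metabolism, had mean levels of 62.5, 91.8 and 83.4 RPKM over the 3 stages, highest at day 4 as Gpt2 was. Prkd1 had 6.42, 5.23 and 3.23 RPKM, lower at each stage than at the one before as in Ass1.

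Promoter sequences, from RefSeq on GRCm38.p6 and running from 250 bases before to 50 bases after each gene's start, matched 7 of the 9 genes; Asl and Slc38a1 had no entry. Those of Ass1, Gpt2 and Prodh, the genes of the 7 that passed the test, are shown 5′ to 3′ on the strand of the gene, with capitals for matches on either strand to 5 short motifs: the hypoxia response element cores ACGTG and GCGTG, the E-box CACGTG, which holds ACGTG on both strands, the C/EBP-ATF response element TGATGNAA and the RUNX core TGTGGT.
Ass1, chr2:31470020-31470319, forward strand: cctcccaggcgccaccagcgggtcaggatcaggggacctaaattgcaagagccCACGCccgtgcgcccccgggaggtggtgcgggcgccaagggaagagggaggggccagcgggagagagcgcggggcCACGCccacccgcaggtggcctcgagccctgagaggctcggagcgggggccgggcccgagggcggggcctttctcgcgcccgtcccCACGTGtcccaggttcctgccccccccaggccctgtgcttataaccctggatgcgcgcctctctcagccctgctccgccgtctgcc
Gpt2, chr8:85492326-85492625, forward strand: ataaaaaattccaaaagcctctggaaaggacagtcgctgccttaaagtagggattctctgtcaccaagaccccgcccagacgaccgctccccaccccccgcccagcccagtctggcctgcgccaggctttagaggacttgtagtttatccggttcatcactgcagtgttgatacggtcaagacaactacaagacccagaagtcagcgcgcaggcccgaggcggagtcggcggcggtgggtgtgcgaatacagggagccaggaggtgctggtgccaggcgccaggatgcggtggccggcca
Prodh, chr16:18089141-18089440, reverse strand: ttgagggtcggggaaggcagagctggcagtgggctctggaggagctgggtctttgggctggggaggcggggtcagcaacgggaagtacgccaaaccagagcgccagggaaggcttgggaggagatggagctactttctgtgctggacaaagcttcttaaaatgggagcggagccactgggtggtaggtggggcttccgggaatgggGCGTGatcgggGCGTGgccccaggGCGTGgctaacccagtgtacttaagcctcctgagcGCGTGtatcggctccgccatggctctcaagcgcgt
Ass1 held CACGTG at position −36 from the gene start, and GCGTG at −197 and −122. Prodh held GCGTG at −44, −33, −20 and 15, and Gpt2 held none of the 5 motifs. RefSeq starts need not be those of GENCODE, and the window of Prodh lies inside its GENCODE gene. Among all 32851 promoters of this length, 7.15% held CACGTG, 19.6% ACGTG, 32.4% GCGTG, 3.97% TGATGNAA and 16.8% TGTGGT. Of the other 4 promoters, Glud1 held GCGTG at 3 places, Oat and Slc1a3 each held ACGTG once, and Glul held none. Ass1, which fell, and Prodh, which rose, thus both hold GCGTG, and a match in these letters is a description and not a site of binding.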

How the data were processed

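RNA-seq was carried out on rRNA-depleted total RNA of 9 libraries, 3 per stage, and the study names them biological replicates. The p-values measure the spread between these samples, which limma shares over genes. According to the methods, the authors aligned reads with STAR 2.0.4b, used featureCounts to count reads that aligned once and to a single gene, and deposited CPM values, scaled to the library total, and RPKM values, which the authors also divided by gene length; whether counting used strand is not given in the sources used here. The genome was GRCm38 per the labels. Repeated lines of a gene (276 and 273 in the 2 tables) were identical and used once, and genes were joined by Ensembl identifier. All CPM were whole multiples of 1 read within 0.01, which gave the reads.

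Day 7 was compared with day 0 by limma 3.58.1 (R 4.3.3, eBayes with trend) on log2(CPM + 0.5) for the 12712 genes whose mean CPM over the 6 libraries reached 1 (11075 genes with reads left out), with Benjamini-Hochberg adjustment and a threshold of 0.05. The variance prior had 42.9 degrees of freedom against 4 residual ones. edgeR 4.0.16 and DESeq2 1.42.0 on recovered reads were among 20 alternatives; 2, a total without 5 genes and leaving out 2 libraries, were added after seeing the data. The fits were also run on simulated counts in which no library had an excess of reads on a few genes. That run therefore cannot tell how the fits deal with the libraries that stood apart. The 9 genes, the pathway and marker lists and the ratios were chosen with earlier results of these data known. Named were the 9 genes, in each list the gene that rose most and the gene that fell most among those past the threshold, marker genes, and each gene's closest match; other names were chosen after their values were seen. Positions are from GENCODE M21 (GRCm38). Some genes of the lists are counted but not reported here by name.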

Additional observations from a re-analysis of the deposited data

How the results depend on the processing

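Ass1 and Slc38a1 passed as lower in all 20 alternatives. Prodh passed as higher in 16 and Gpt2 in 13; in the other 7 its adjusted p was 0.0527 to 0.209. Of the 9 genes, 2 rose as reported, against 0 with all genes with reads, 1 on the RPKM values, 1 with the replicate block and 0 to 2 when 1 replicate was left out, with 0 without day 7 replicate 1 or without day 7 replicate 3. Of the 9, 2 fell as reported, against 6 with quality weights per library, 4 with the total without 5 genes, 5 without both day 0 replicate 3 and day 7 replicate 2, and 2 to 5 when 1 replicate was left out, with 5 without day 0 replicate 3. Among the 9, the genes gained were Glul, Glud1 and, except with the total without 5 genes, Oat, and with quality weights also Slc1a3. The cause was not tested. Of the 12712 genes tested, 2369 were lower as reported, 5861 with quality weights and 3939 with the total without 5 genes. Without both libraries 4232 were lower, and without day 0 replicate 3 alone 4696. Thus the count over all genes rose in these settings too. Higher were 1602 as reported, 1530 on the RPKM values, 1463 with the replicate block, and 1174 and 1296 without day 7 replicate 1 or 3. With all genes with reads, 1816 of 23787 were higher.

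Asl, −0.07 as reported, was 0.0368 after median-of-ratios scaling, 0.0302 with TMM, 0.0442 with edgeR, 0.0468 with DESeq2, 0.0611 with voomWithQualityWeights and, when 1 library was left out, between −0.162 without day 0 replicate 3 and 0.0124 without day 7 replicate 2. Slc1a3, −0.07 as reported, was 0.0385 after median-of-ratios scaling, 0.0318 with TMM, 0.0017 with edgeR, 0.0106 with DESeq2 and, when 1 library was left out, between −0.293 without day 0 replicate 3 and 0.162 without day 0 replicate 2. None of these passed the threshold. With quality weights per library, Slc1a3 was −0.471 and did pass (limma adjusted p = 4.99e-04). In that setting 5861 of the 12712 genes tested were lower, and the median over all genes was −0.20. The weight was 4.99 for day 0 replicate 2, which held the highest Slc1a3 level, and 0.123 for day 0 replicate 3.

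Of the 60 pathway genes, 8 rose as reported, against 15 after median-of-ratios scaling, 14 with TMM, 13 with quality weights, 15 with edgeR, 13 with DESeq2, 17 with voomWithQualityWeights, 5 with the replicate block and 5 to 11 when 1 or 2 libraries were left out. The 15 that fell were 28 with quality weights, 25 without the 2 libraries and 7 to 26 when 1 replicate was left out, with 26 without day 0 replicate 3. Over all genes, 3971 passed as reported, 8086 with quality weights, 6120 with voomWithQualityWeights, 3413 with the replicate block and 2906 to 6299 when 1 replicate was left out, the highest without day 0 replicate 3; of the calls, 40.3% were higher as reported, 27.5% with quality weights and 51.8% after median-of-ratios scaling. Deviations of equally numbered day 0 and day 7 libraries correlated at −0.0172, −0.181 and −0.444, and no library correlated best with its own number. The highest correlation, 0.356, was that of day 0 replicate 3 with day 7 replicate 2, the libraries with most reads on Gm42418, Lars2, Mir6236 and Gm15564. Such a shared excess can hide a pairing, so these values cannot tell whether replicate numbers pair the samples. Without day 0 replicate 3, 8 of the 9 genes did not overlap between day 0 and day 4 (5 as reported), where 71.2% of all genes did not (43.3% as reported), and without day 7 replicate 3, 5 did not overlap between day 4 and day 7 (3 as reported), where 45.8% of all genes did not (38.5% as reported). Depth limits Prodh most, with 16 reads in day 0 replicate 3.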
